A study of Mus musculus with 18 samples.

Results

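DEAD-box helicases are RNA-dependent ATPases named after the letters Asp-Glu-Ala-Asp of a conserved motif. They bind short stretches of RNA, open duplexes locally and displace proteins from RNA, and separate members act in ribosome assembly, splicing, mRNA export, translation initiation and mRNA decay. Ddx41 belongs to the family, has been found with the spliceosome and with DNA-sensing pathways of innate immunity, and carries inherited mutations in human families with myeloid leukemia. The members described here are the genes of the deposited count table whose symbol is Ddx followed by digits and at most 1 letter, leaving out Ddx41, Ddx58 and Ddx3y. The rule gave 35 genes of the 24062 symbols in the table, and 33 of them passed the filter on low counts, as did 12859 genes in all. Ddx25 and Ddx43, both known from germ cells, did not pass it, with at most 3 and 16 counts in any library. The design addresses which transcripts change when Ddx41 is lost, and for these genes whether other helicases of the family rise.

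The data are 18 RNA-seq libraries of mouse progenitor lines made from lineage-negative bone marrow by a retrovirus carrying the leukemia fusion MLL-AF9 and grown with IL-3, SCF and IL-6. All 6 groups carry Rosa-CreERT, a Cre recombinase that 4-hydroxytamoxifen (4OHT) activates, and each was treated for 48 h with 1 µM 4OHT or with ethanol. In ethanol the genotype of Ddx41 is given as +/+ for WT, +/flox for Het and flox/flox for FF, and in 4OHT as +/+ for WT, +/- for Het and -/- for FF. Each group has 3 libraries, lettered A to C, with 24730213 to 49277884 counts. The labels give neither the number of lines behind a genotype nor separate cultures behind the letters, so genotype and line cannot be told apart, and a p-value here covers the variation among libraries that may be technical repeats.

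Ddx41 was lower in each FF_4OHT library, at 14.6, 16.5 and 17.7 TMM-normalized CPM (reads of a gene after scaling every library to the same depth) for A, B and C, than in the FF_EtOH libraries, at 112, 82.0 and 73.7 CPM. The mean in 4OHT was 18.2% of that in ethanol (log2 fold change -2.45 ± 0.17 SE, edgeR adjusted p = 8.09e-07). Het_EtOH had 71.3, 68.0 and 79.1 CPM and Het_4OHT 58.4, 43.0 and 41.3 CPM, without overlap, though Het did not pass the test (log2 -0.61 ± 0.16). The WT libraries had 80.1, 81.8 and 89.6 CPM in ethanol and 75.5, 88.5 and 93.0 CPM in 4OHT. The order of the groups thus follows their labels. Library FF_EtOH C correlated more closely with WT libraries (mean r 0.994 across genes) than with FF libraries (0.976), and library WT_4OHT C more closely with FF (0.982) than with WT (0.976). Eif2s3y, a gene of the Y chromosome, had 2274 counts in FF_EtOH C and 0 in the other 5 FF libraries, and 0 in WT_4OHT C. Counts of members called that rest on these 2 libraries are therefore also given without them. The change of Ddx41, the marker sums and the counts of members without overlap are given over all libraries only. Ddx41 is not deleted in either group, with 73.7 CPM in FF_EtOH C and 93.0 CPM in WT_4OHT C, so its level cannot check these 2 labels. In 4OHT the FF libraries also showed higher monocyte markers (summed level 2335 to 2983 CPM over 9 genes, against 1031 to 1148 in ethanol, with 5 of 9 genes up) and lower proliferation markers (1774 to 2156 CPM over 10 genes, against 3242 to 3405, with 9 of 10 down). Of 9 progenitor markers all had counts in every group, and 2 fell in FF, Mpo and Myb. Flt3, Cd34 and Gata2 were near the floor in FF, with means of 0.142 to 0.293 CPM in the 2 FF groups. In ethanol 2 of the 9 were higher and 3 lower in Het than in WT, against 13.3% and 10.4% of all tested genes. Mpo had 3340 CPM in WT_EtOH and 117 CPM in Het_EtOH. Hba-a1, which marks red cells, and Cd3e, which marks T cells, had 0 counts in every library. Other genes of the erythroid and lymphoid lists were detected, with group means up to 3.27 CPM for Car2 (WT_EtOH) and 9.49 CPM for Nkg7 (FF_EtOH). Of the 4 genes of the mast cell list, Hdc had group means of 7.49 to 21.4 CPM and Mcpt8 of 6.01 to 19.6 CPM. Cpa3 had group means of only 0.0943 to 2.13 CPM. Fcer1a did not pass the filter on low counts and had 0 counts in Het_EtOH. The stromal gene Pdgfrb had 16.1 CPM in Het_EtOH, 18.4 CPM in Het_4OHT and 0.0312 to 0.89 CPM in the other groups. The part of these marker differences in the values below was not tested. In bulk samples fewer cells of a type and less RNA per cell cannot be told apart.

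The family motif is shown first, for the members on which the results turn, for Ddx41 and for members whose motif letters differ. Each line gives 36 coding bases of the longest coding transcript (GENCODE M21, GRCm38), 5′ to 3′, with the codons of the motif in capitals.
Ddx41: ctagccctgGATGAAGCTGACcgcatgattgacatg
Ddx55: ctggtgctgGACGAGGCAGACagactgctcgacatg
Ddx59: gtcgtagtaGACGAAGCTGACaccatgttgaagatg
Ddx50: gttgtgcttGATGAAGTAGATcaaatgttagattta
Ddx21: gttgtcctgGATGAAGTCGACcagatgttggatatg
Ddx11: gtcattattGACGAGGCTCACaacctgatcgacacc
Ddx39b: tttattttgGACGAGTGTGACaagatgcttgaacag
Ddx52: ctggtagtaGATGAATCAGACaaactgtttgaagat
Ddx60: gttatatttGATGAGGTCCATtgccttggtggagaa
Ddx19a: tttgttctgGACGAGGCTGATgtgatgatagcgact
Ddx19b: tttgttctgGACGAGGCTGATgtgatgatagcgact

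Of the 35 members, 27 encode DEAD in that transcript, among them Ddx55 and Ddx59. The nucleolar paralogs Ddx21 and Ddx50, and Ddx28, encode DEVD, the export helicases Ddx39 and Ddx39b encode DECD, and Ddx52 encodes DESD. Ddx11 encodes DEAH and Ddx60 encodes DEVH, so the symbol also covers helicases outside the DEAD-box class proper. Ddx26b, listed as Ints6l in GENCODE M21 and related to the Integrator subunit Ints6, holds the letters DEAD only at residue 596 and is not known as a helicase. Ddx19a and Ddx19b are identical over the stretch printed above and share 676 of their 50-base coding windows, which is 48.7% of the windows of Ddx19a and 47.08% of those of Ddx19b, so reads from these stretches may be assigned to either.

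Levels between genes are compared as CPM per kilobase of union exon length. Ddx5, a splicing and transcription cofactor, was the most abundant member at a mean of 199 CPM per kilobase over the 18 libraries (range 150 to 246). Ddx3x, which promotes translation initiation on structured mRNAs, followed at 136, Ddx39b, which loads export factors onto mRNA, at 102, and Ddx21, which acts in rRNA synthesis and processing, at 83.2. The most abundant members thus span splicing, export, translation and ribosome assembly. At the other end stood Ddx26b at 4.04, Ddx59 at 1.78, the interferon-induced Ddx60 at 0.112 and the germ-cell helicase Ddx4 at 0.1 CPM per kilobase. The order is gradual: of 34 neighbouring pairs, 32 have library ranges that overlap, and the 2 that do not are Ddx26b with Ddx59 and Ddx59 with Ddx60. With the longest transcript in place of the union exon length, 9 of the first 10 members stayed among the first 10. Ddx41, placed in the same order of 36 genes, ranked 13 in FF_EtOH and 29 in FF_4OHT, and ranked 14 in both WT groups.

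**Figure D1:**
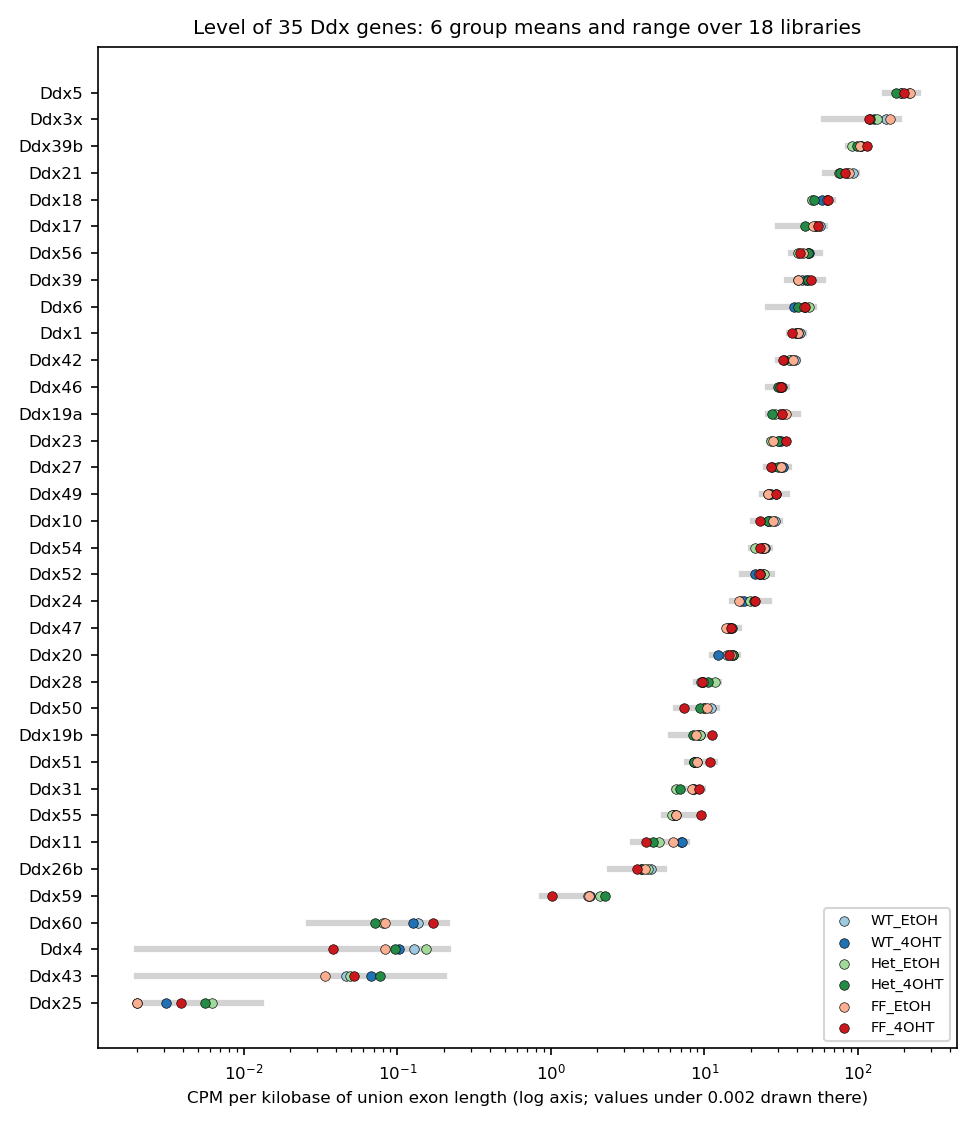
Levels of the 35 members in CPM per kilobase of union exon length (log axis), with a point for the mean of each of the 6 groups and a grey line from the lowest to the highest of 18 libraries. Ddx5 leads at a mean of 199, and the points of Ddx59, Ddx60, Ddx4, Ddx43 and Ddx25 lie below 3.

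Across libraries most members kept a narrow range. For 26 of the 33 tested members the highest library was less than 2 times the lowest. Ddx47, whose yeast homolog Rrp3 acts in small-subunit assembly, varied least, from 90.2 to 111 CPM (coefficient of variation 4.83%). Among abundant members Ddx3x varied most, from 318 CPM in Het_4OHT A to 983 CPM in WT_EtOH A (24.3%). Het_4OHT A was the lowest library for 10 of the 33 members and the highest for 6, and its correlation with its own group was the lowest of any library, at a mean r of 0.966. The level summed over the members lay at 6117 to 6464 CPM in FF_EtOH and at 5658 to 6222 CPM in FF_4OHT, so the groups overlapped. It lay at 5600 to 6756 CPM in WT_EtOH, 5462 to 6358 in WT_4OHT, 5511 to 5946 in Het_EtOH and 5055 to 6194 in Het_4OHT. The mean sum in FF was 6244 ± 191 CPM in ethanol and 6013 ± 309 CPM in 4OHT (SD, n = 3), beside a drop of 72.9 CPM in Ddx41. Both SDs exceed that drop, so the sum cannot show whether the members offset it. The sum is not scaled for gene length and leans on abundant members. Ddx3x alone had 849 ± 79.2 CPM in FF_EtOH and 625 ± 135 CPM in FF_4OHT.

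**Figure D2:**
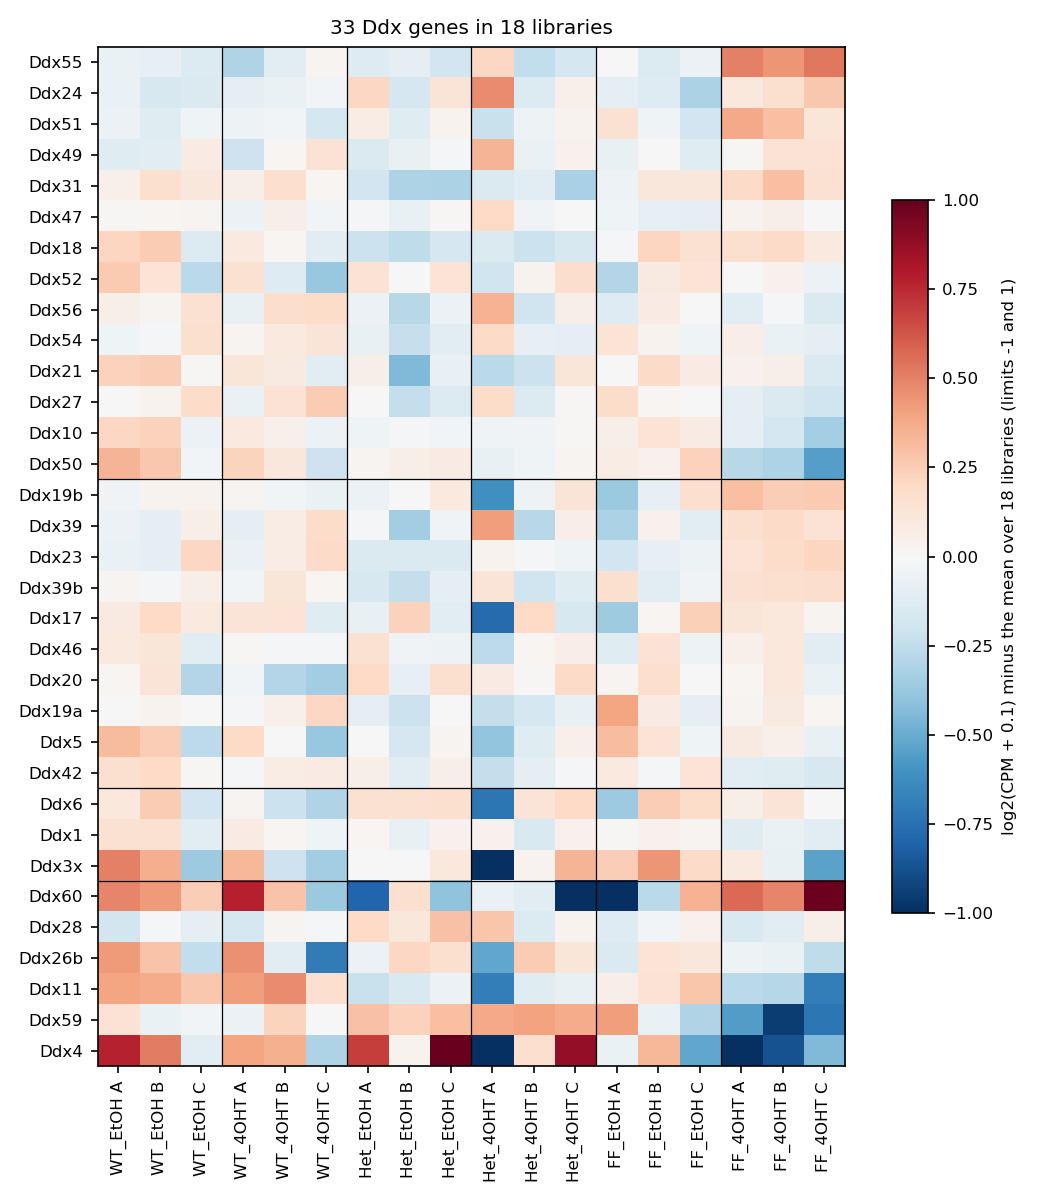
Deviation of each tested member from its own mean over 18 libraries, as log2(CPM + 0.1), with colours ending at -1 and 1, members in rows ordered by role and libraries in columns by group. Ddx55 is high in all 3 FF_4OHT libraries, Ddx50 and Ddx59 are low there, and Het_4OHT A stands out as a column of strong deviations in both directions.

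In FF cells, loss of Ddx41 went with a rise of 1 member and a fall of 3 of the 33 tested. Ddx55 rose, and Ddx50, Ddx59 and Ddx11 fell. The share that rose was 3.03%, against 5.16% of all tested genes, and the share that fell was 9.09%, against 8.29%. Both shares lie near the background, and the median log2 fold change of the tested members equalled that of all tested genes, at -0.02. Log2 values ran from -1.13 (Ddx4) to 1.02 (Ddx60), with 16 above 0 and 17 below, and 28 of 33 lay within 0.5 of 0. The SE had a median of 0.12. An unadjusted p below 0.05 was reached by 10 members. The share of all tested genes under that limit is not given, here or for such counts below. The libraries of the 2 FF groups did not overlap for 9 members that were higher in 4OHT and 8 that were lower, while over all tested genes this held for 18.7% and 21.5%. Without FF_EtOH C and WT_4OHT C, 1 member rose and 2 fell (4.43% and 7.52% of all genes tested), and Ddx11 no longer passed, at log2 -0.51 and an adjusted p of 0.0708 in edgeR. Single libraries also moved the count of 4. It was 1 without FF_4OHT C and 2 without FF_4OHT B or FF_EtOH C. Without Het_4OHT A, which belongs to neither FF group, it was 8, with 4 higher and 4 lower. The share of all genes called in each of these single-library fits is not given, so the counts cannot be set against it.

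**Figure D3:**
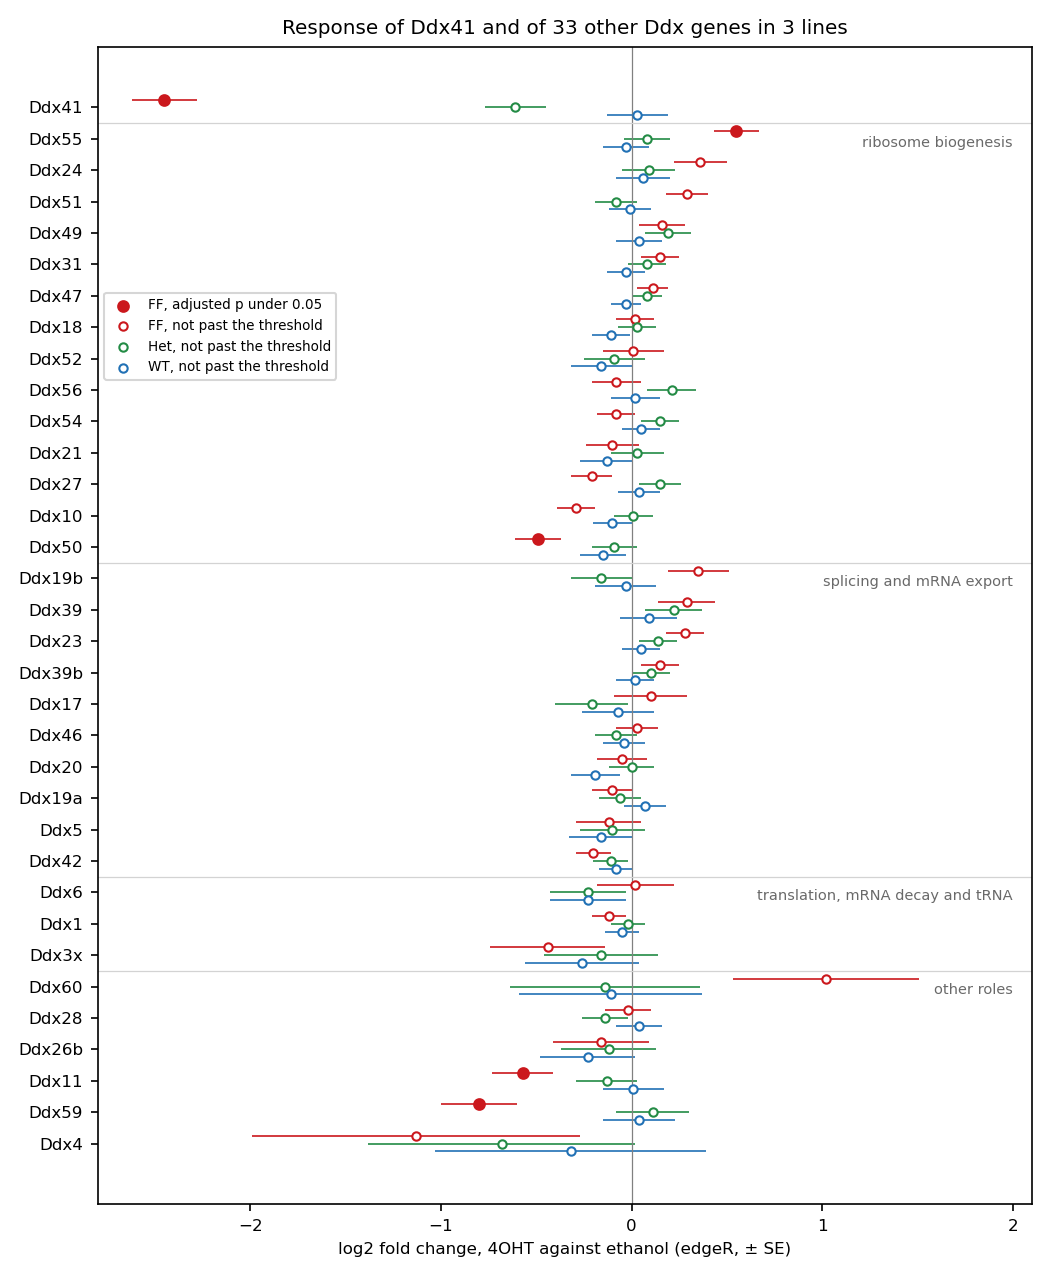
Log2 fold change of 4OHT against ethanol (± SE, edgeR) for Ddx41 and the 33 tested members in FF (red), Het (green) and WT (blue), ordered by role and by the FF value. Filled points passed an adjusted p of 0.05; apart from Ddx41 these are Ddx55 at 0.55, Ddx50 at -0.49, Ddx11 at -0.57 and Ddx59 at -0.80, all in FF.

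Ddx55 (ENSMUSG00000029389, chr5:124552864-124569660, plus strand, GRCm38) is a protein-coding gene whose yeast homolog Spb4 acts in maturation of the large ribosomal subunit. Its level was 36.0, 32.7 and 34.5 CPM in FF_EtOH A, B and C, and 51.0, 48.8 and 51.7 CPM in FF_4OHT. All FF_4OHT libraries lay above all FF_EtOH libraries. The mean was 1.47 times that in ethanol (log2 0.55 ± 0.12 SE, edgeR adjusted p = 0.00711), a gain of 16.1 CPM. The other groups stayed lower, with 34.2, 33.9 and 32.7 CPM in WT_EtOH and 29.1, 33.4 and 36.5 CPM in WT_4OHT. Het_EtOH had 32.8, 33.7 and 31.5 CPM and Het_4OHT 41.5, 30.3 and 31.7 CPM. The next highest library after the FF_4OHT libraries was thus Het_4OHT A. The rise passed the threshold in all 31 alternative settings, with log2 values of 0.52 to 0.59.

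Ddx50 (ENSMUSG00000020076, chr10:62615895-62651218, minus strand), a nucleolar paralog that lies beside Ddx21, moved the other way. It had 102, 100 and 114 CPM in FF_EtOH and 80.2, 78.2 and 66.2 CPM in FF_4OHT. Every FF_4OHT library lay below every other library of the study, the lowest of which, WT_4OHT C, had 84.2 CPM. The FF mean in 4OHT was 71.1% of that in ethanol (log2 -0.49 ± 0.12 SE, edgeR adjusted p = 0.0146). The fall did not pass without library FF_4OHT C (log2 -0.40, adjusted p = 0.104) or without FF_EtOH C (-0.44, 0.0561), and it passed without both libraries that lie with the other line (-0.44, 0.0326). WT levels spread widely, from 95.4 to 123 CPM in ethanol and from 84.2 to 113 CPM in 4OHT. Het levels lay between 92.4 and 103 CPM in both treatments.

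Set against its paralog in the same library, Ddx50 had 24.0, 20.5 and 25.1 counts per 100 Ddx21 counts in FF_EtOH and 18.2, 17.6 and 17.1 in FF_4OHT. The ratio does not depend on the scaling of libraries, and its 3 FF_4OHT values lay below those of the other 15 libraries, which ranged from 20.5 to 32.2. Ddx21 itself had means of 456 CPM in ethanol and 424 CPM in 4OHT (log2 -0.10 ± 0.14 SE, edgeR adjusted p = 0.672). The ratios of 3 other pairs of relatives overlapped between the FF groups. Ddx39b had 153 to 235 counts per 100 Ddx39 counts in FF_EtOH and 166 to 173 in FF_4OHT, Ddx17 had 22.0 to 42.3 and 35.5 to 37.3 per 100 Ddx5 counts, and Ddx19b had 40.1 to 82.3 and 76.4 to 82.9 per 100 Ddx19a counts. Without FF_EtOH C the last 2 pairs no longer overlapped, with 22.0 and 32.0 Ddx17 counts per 100 Ddx5 counts and 40.1 and 60.9 Ddx19b counts per 100 Ddx19a counts in FF_EtOH A and B. The FF_EtOH libraries differed among themselves more than the FF_4OHT libraries in all 4 ratios.

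**Figure D4:**
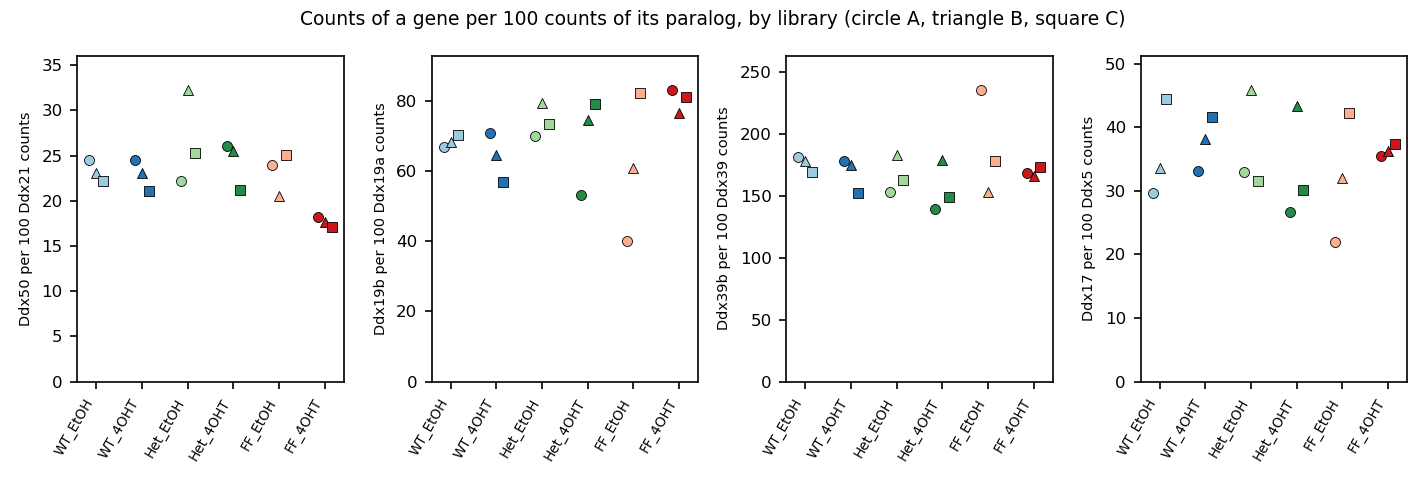
Counts of Ddx50, Ddx19b, Ddx39b and Ddx17 per 100 counts of a related member (Ddx21, Ddx19a, Ddx39 and Ddx5), with a point per library and groups on the horizontal axis. The 3 FF_4OHT points of Ddx50 per 100 Ddx21, at 17.1 to 18.2, lie below all others; in the other 3 panels the FF_4OHT points lie within or beside those of the other groups.

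Ddx59 (ENSMUSG00000026404, chr1:136415271-136440158, plus strand), linked in human to an orofaciodigital syndrome, was low throughout. It had 6.81, 4.83 and 4.10 CPM in FF_EtOH and 3.41, 2.57 and 3.04 CPM in FF_4OHT, from 73 to 86 counts per library in the latter. The FF groups did not overlap, and the FF_4OHT libraries were the lowest of the 18. The mean in 4OHT was 57.2% of that in ethanol (log2 -0.80 ± 0.20 SE, edgeR adjusted p = 0.0142), and without the 2 libraries that lie with the other line log2 was -0.96 (adjusted p = 0.00812). The call was lost without FF_4OHT B, FF_4OHT C or FF_EtOH A, with adjusted p values of 0.0761, 0.0607 and 0.0658. An exon of 9230116N13Rik lies on the other strand, and since the strand setting is not given in the sources used here, its reads cannot be told apart; it had 3 to 34 counts per library. In Het, Ddx59 had 5.95 to 6.27 CPM in ethanol and 6.57 to 6.74 CPM in 4OHT.

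Ddx11 (ENSMUSG00000035842, chr17:66123520-66152174, plus strand) encodes a DNA helicase that acts in sister chromatid cohesion. It had 38.5, 40.7 and 44.6 CPM in FF_EtOH and 30.5, 30.2 and 22.7 CPM in FF_4OHT. These groups did not overlap (67.4% of the ethanol mean, log2 -0.57 ± 0.16 SE, edgeR adjusted p = 0.0255). Library FF_4OHT C, the lowest, was matched by Het_4OHT A at 22.7 CPM. The call was lost without FF_4OHT B, FF_4OHT C, FF_EtOH B or FF_EtOH C, with log2 between -0.62 and -0.43. Proliferation markers fell in the same FF_4OHT libraries, as given above, and a link between them and Ddx11 was not tested.

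**Figure D5:**
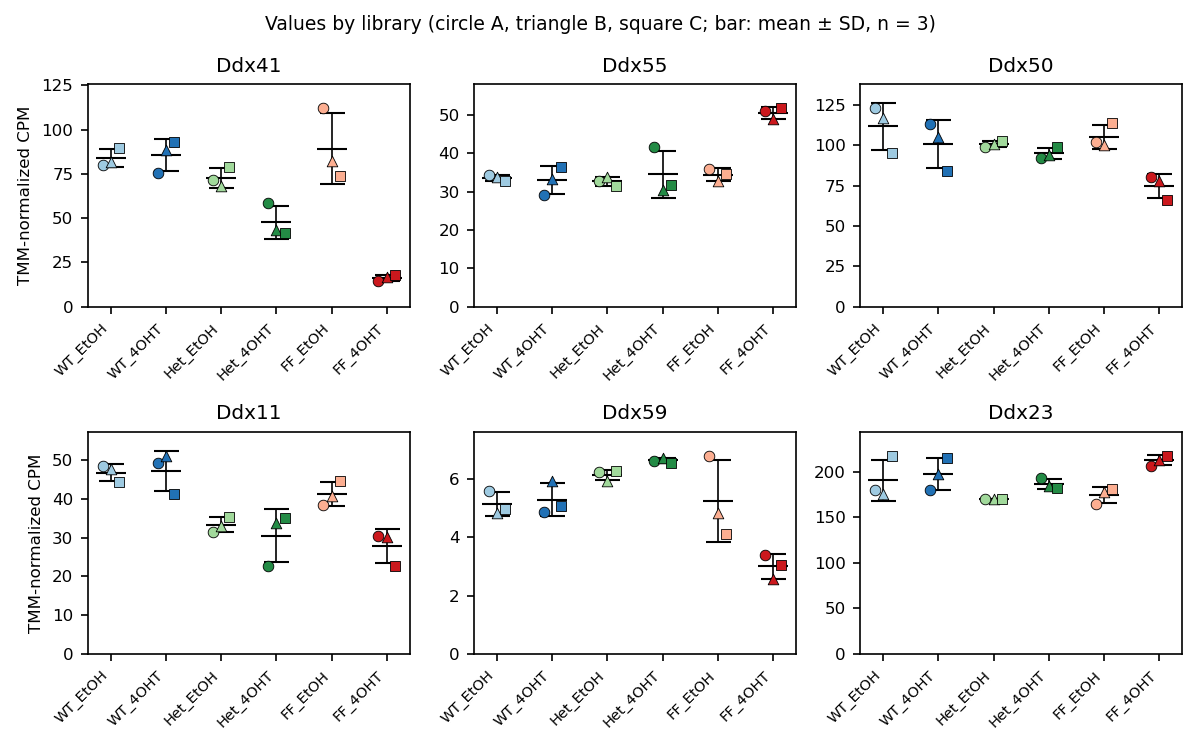
TMM-normalized CPM of Ddx41, of the 4 members that passed in FF and of Ddx23, by group, with a point per library and bars for the mean ± SD (n = 3). The FF_4OHT libraries lie at 48.8 to 51.7 CPM for Ddx55, above every other library, and at 66.2 to 80.2 CPM for Ddx50 and 2.57 to 3.41 CPM for Ddx59, below every other library.

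By role, the 14 members of ribosome biogenesis held 1 that rose (Ddx55) and 1 that fell (Ddx50) in edgeR and in limma voom, with a median log2 fold change of 0.02 in FF. DESeq2 called 1 higher and 2 lower, the second being Ddx10 (-0.27, adjusted p = 0.0214). The members nearest to the threshold were Ddx10, at log2 -0.29 ± 0.10 (edgeR adjusted p = 0.0551), and Ddx24, at 0.36 ± 0.14 (0.0955), whose yeast homologs Dbp4 and Mak5 act in assembly of the small and large subunit. Ddx24 was called by edgeR with a filter of 5 CPM in 3 libraries (adjusted p = 0.0484), on the compared groups alone (0.0458) and with scaling by library size alone (0.0474), and both genes were called without Het_4OHT A (0.0332 for Ddx10 and 0.022 for Ddx24). Ddx51, homolog of yeast Dbp6, had 0.29 ± 0.11 (0.0980). The most abundant member of the group, Ddx21, is given above, and Ddx18, homolog of yeast Has1, had 157 CPM in ethanol and 160 CPM in 4OHT. Of 20 ribosome biogenesis factors without a DEAD box, 0 rose in edgeR, DESeq2 or limma voom, with 1 at an unadjusted p below 0.05, and 4 fell in FF, where 8.29% of all tested genes fell (median -0.19, against -0.02 over all tested genes): the RNA polymerase I subunit Polr1a (log2 -0.82 ± 0.11), the RNA acetyltransferase Nat10 (-0.59 ± 0.10), the pseudouridine synthase Dkc1 (-0.52 ± 0.13) and Bop1 (-0.42 ± 0.11). The rRNA symbol Rn45s stood at 18286 and 41160 CPM in FF_4OHT B and C, and at 14895 CPM in Het_4OHT A; in the other libraries it was between 1964 and 6594 CPM, and its part in these values was not tested.

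Of the 10 members of splicing and mRNA export 0 passed the threshold in FF in edgeR (median log2 0.06, range -0.20 to 0.35), while 3 had an unadjusted p below 0.05, DESeq2 called 1, Ddx23, and limma voom called 0. Ddx23, the U5 snRNP helicase that acts when U1 leaves the 5′ splice site, had 165, 178 and 181 CPM in FF_EtOH and 207, 213 and 218 CPM in FF_4OHT. These values did not overlap, with log2 0.28 ± 0.10 and an edgeR adjusted p of 0.0602, and the WT libraries spread from 176 to 217 CPM. DESeq2 gave log2 0.30 for Ddx23 (adjusted p = 0.0105). It was also called by edgeR with DESeq2 size factors (0.0481), with the filter of 5 CPM (0.0266) and on the compared groups alone (0.0426). Leaving out Het_4OHT A or WT_EtOH C also gave a call in edgeR (0.0364 and 0.0246). So did leaving out either one together with the 2 libraries that lie with the other line (0.0388 and 0.0385). Without those 2 libraries alone Ddx23 was not called. Ddx19b, an mRNA export factor at the nuclear pore, had log2 0.35 ± 0.16 (adjusted p = 0.15). Without the 2 libraries that lie with the other line its log2 was 0.49 (0.0749), and edgeR called it without Het_4OHT A (0.35, 0.0355) and without all 3 of these libraries (0.50, 0.0043). Ddx39 had 0.29 ± 0.15 (0.23), and the SF3b-associated Ddx42 had -0.20 ± 0.09 (0.154). Ddx46, which acts in U2 snRNP addition to the branch site, Ddx20, the Gemin3 subunit of the SMN complex, and Ddx19a had values between -0.10 and 0.03. Ddx5, the most abundant of all, had 1254 ± 152 CPM in FF_EtOH and 1157 ± 66.3 CPM in FF_4OHT (log2 -0.12 ± 0.17, adjusted p = 0.702).

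Of the 3 members of translation, mRNA decay and tRNA processing 0 passed in FF in edgeR, DESeq2 or limma voom, and 0 had an unadjusted p below 0.05. Ddx3x had 819, 938 and 788 CPM in FF_EtOH and 741, 657 and 476 CPM in FF_4OHT, without overlap, yet with a wide spread in the other groups (log2 -0.44 ± 0.30, edgeR adjusted p = 0.366). Ddx6, which represses translation and promotes decay of mRNAs, had log2 0.02 ± 0.20, and Ddx1, a subunit of the tRNA ligase complex, had -0.12 ± 0.09. Related DEAD-box helicases with other symbols, the initiation factors Eif4a1 and Eif4a2 and the exon junction component Eif4a3, had 0.13 ± 0.12, 0.58 ± 0.24 and 0.03 ± 0.15, and 0 of 3 passed in edgeR, DESeq2 or limma voom, with 1, Eif4a2, at an unadjusted p below 0.05. Among 37 listed cofactors and partners 1 rose and 7 fell, where 5.16% and 8.29% of all tested genes did (median -0.13, against -0.02 over all tested genes). Eif4b, a stimulator of eIF4A, rose by 0.42 ± 0.09 (edgeR adjusted p = 0.00883). Thoc6, of the THO export complex that works with Ddx39b, had log2 -0.93 ± 0.14 (0.000682), Gemin6, of the complex that holds Ddx20, -0.83 ± 0.17 (0.00582), and Lsm14b, of a family that binds Ddx6, -0.56 ± 0.13 (0.0095). The partner helicases of these 3 cofactors did not pass.

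Of the 8 members with other roles, 6 were tested and Ddx59 and Ddx11 fell. Ddx60, an interferon-induced helicase, had 0.326, 0.711 and 1.14 CPM in FF_EtOH and 1.35, 1.27 and 1.83 CPM in FF_4OHT. Its FF groups did not overlap, at log2 1.02 ± 0.49 and an edgeR adjusted p of 0.192, and WT libraries reached 1.57 CPM. Its log2 was 1.49 without the 2 libraries that lie with the other line (0.0794), and edgeR called it when Het_4OHT A was left out too (1.49, 0.0478). Its values rest on 7 to 44 counts per library. Ddx4, known as vasa from germ cells, had at most 25 counts in any library and log2 -1.13 ± 0.86 (0.431). Ddx28, which acts in assembly of the mitochondrial ribosome, had -0.02 ± 0.12, and Ddx26b had -0.16 ± 0.25.

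In Het cells, where 4OHT leaves a single Ddx41 allele, 0 of 33 members passed in edgeR, against 0.0156% of all tested genes. In WT cells, where 4OHT acts without a floxed allele, 0 of 33 passed, against 0.0% of all tested genes. In both comparisons 0 members had an unadjusted p below 0.05, and DESeq2 and limma voom also called 0. Log2 values ran from -0.68 to 0.22 in Het and from -0.32 to 0.09 in WT, and Ddx4, with the fewest counts, gave the lowest value in each. Ddx55 had log2 0.08 ± 0.12 in Het and -0.03 ± 0.12 in WT, and Ddx50 had -0.09 ± 0.12 and -0.15 ± 0.12. Ddx59 had 0.11 ± 0.19 in Het and 0.04 ± 0.19 in WT, and Ddx11 had -0.13 ± 0.16 and 0.01 ± 0.16. WT_4OHT C, which correlated more closely with FF libraries than with WT libraries, is among the treated WT libraries. Without WT_4OHT C and FF_EtOH C edgeR also called 0 of 33 members in WT. The share of all genes called in that fit is not given.

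Whether the FF response differed from the other responses was tested as an interaction. Against the WT response 0 of 33 members passed in edgeR, against 2.3% of all tested genes, and 3 had an unadjusted p below 0.05. The smallest adjusted p was that of Ddx55, at 0.0968 (difference of log2 fold changes 0.58 ± 0.17). DESeq2 called 1 member, Ddx55 (0.60, adjusted p = 0.0141; 5.36% of all genes), and limma voom 0. Against the Het response 0 of 33 passed, against 2.5% of all tested genes, and 7 had an unadjusted p below 0.05. There Ddx59 came nearest, at -0.92 ± 0.28 (0.0964), and DESeq2 called it at -0.90 (0.0275; 1 member, against 5.8% of all genes), while limma voom called 0. Without the 2 libraries that lie with the other line edgeR called Ddx59 in this comparison (-1.07, adjusted p = 0.0485). Against the WT response the same fit called 0 members. The share of all genes called in that fit is not given. Without Het_4OHT A edgeR called Ddx55 against the WT response (0.58, adjusted p = 0.0183) and against the Het response (0.63, 0.0213). Ddx50 and Ddx11 differed from the WT response by -0.35 and -0.58, with adjusted p values of 0.357 and 0.208. None of the 4 calls in FF is therefore shown by the edgeR test over all 18 libraries to differ from the response of the other lines. The share of all tested genes at an unadjusted p below 0.05 is not given for either interaction. The FF comparisons share the FF libraries.

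In ethanol, before loss of Ddx41, FF and WT were compared and 0 of 33 members passed in edgeR, against 0.0% of all tested genes. An unadjusted p below 0.05 was reached by 0 members, and DESeq2 and limma voom called 0. FF_EtOH C, which correlated more closely with WT libraries than with FF libraries, is among the FF libraries compared here. Without FF_EtOH C and WT_4OHT C edgeR also called 0 of 33 members. The share of all genes called in that fit is not given, so these counts do not show that the lines are alike. Het against WT in ethanol gave 0 members higher and 3 lower, against 13.3% and 10.4% of all tested genes, so the share of members that was lower, 9.09%, lay near that of all genes. Among the higher members 1 had an unadjusted p below 0.05, Ddx28, which DESeq2 called (log2 0.32, adjusted p = 0.0303) and limma voom did not. Ddx31, whose yeast homolog Dbp7 acts in large-subunit assembly, had 28.9, 31.3 and 30.2 CPM in WT_EtOH and 24.5, 22.6 and 22.4 CPM in Het_EtOH (log2 -0.38 ± 0.10, edgeR adjusted p = 0.0119). Ddx18 had 167, 172 and 131 CPM in WT and 124, 121 and 128 CPM in Het (-0.33 ± 0.10, 0.0305), and Ddx11 had 48.4, 47.6 and 44.4 CPM and 31.5, 33.1 and 35.3 CPM (-0.49 ± 0.16, 0.0312). For each of these 3 genes the values did not overlap between the lines. The same held for 9 of the 33 members that were lower in Het, these 3 among them, and for 2 that were higher. The share of all tested genes without overlap is not given for this comparison. The calls depended on single libraries: without Het_EtOH B, Het_EtOH C or WT_EtOH B, 0 members passed, and 1 passed without Het_EtOH A, WT_EtOH A, WT_EtOH C or FF_4OHT B. With scaling by library size alone none of the 3 was called (adjusted p between 0.109 and 0.208), and Ddx28 was called higher (log2 0.44, 0.0103). Ddx11 was thus lower in FF_4OHT than in FF_EtOH and lower in Het_EtOH than in WT_EtOH.

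Promoter windows in RefSeq (GRCm38.p6, 250 bases before to 50 after the start) were found for 31 of the 35 members, with 38 windows in all. The letters CCGGAA, the core that ETS factors are known to bind, occurred on either strand in 16 of the 38 windows (42.1%) and in 14.9% of all 32851 windows. They were present for Ddx55 and Ddx50, which moved in opposite directions, and not in the window of Ddx59. CCAAT was found in 52.6% of the members' windows and 37.4% of all, CACGTG in 10.5% and 7.2%, and TATAAA in 10.5% and 13.6%. A match describes the letters and is not a site.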

How the data were processed

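RNA abundance was measured in 18 libraries. The authors deposited unnormalized whole-number counts for each gene symbol. The tools named in the submitters' processing notes are HISAT2 2.0.5, featureCounts 1.5.2 of Subread, CASAVA 1.4 and FastQC 0.11.7, and the build is mm10. Annotation, strand setting and treatment of reads with several matches: not given in the sources used here. Differences between libraries were tested on the deposited counts with edgeR 4.0.16 in R 4.3.3: all 18 libraries in 1 fit with a mean per group, TMM scaling, filterByExpr (minimum count 10), robust quasi-likelihood F test, Benjamini-Hochberg adjustment over all 12859 tested genes and a threshold of 0.05. The 7 comparisons are 4OHT against ethanol in 3 lines, 2 interactions, and WT in ethanol set against FF and against Het. The test was tried on simulated data first. With totals of 24730213 to 49277884, 1 count is 0.0203 to 0.0404 CPM.

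The members, role groups and gene lists were chosen with earlier results of these data known. Members past the threshold in FF are given in full, others by role. Coordinates, exon lengths and coding sequences come from GENCODE M21 (GRCm38, the assembly of mm10). No 2 libraries of the 153 pairs had identical counts. Letters are shared between groups: deviations of same-lettered libraries correlated at 0.52, 0.77 and 0.45 in Het, at 0.56, -0.09 and 0.32 in WT and at 0.19, 0.31 and 0.08 in FF. Libraries of different letters were not compared in this way, so whether the letters pair the libraries was not tested. Alternatives were DESeq2 1.42.0, limma voom 3.58.1, 2 other scalings, 2 other filters, the compared groups alone, a replicate block, an adjusted p of 0.01, and libraries left out singly or together.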

Additional observations from a re-analysis of the deposited data

Results flagged for a closer look

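Ddx3y, the Y-linked relative of Ddx3x that the rule leaves out, had 1485 to 2668 counts in the 6 libraries in which the Y-linked gene Eif2s3y had 0 counts, so a signal appeared there in data outside the members. That is 8.59% to 13.4% of the Ddx3x counts of the same libraries. In the other 12 libraries, where Eif2s3y had 2247 to 3665 counts, Ddx3y had 899 to 4010 counts, or 9.1% to 11.8% of Ddx3x. The longest coding sequences of Ddx3x and Ddx3y share no identical 50-base window. Untranslated stretches, other transcripts and matches with differing letters were not compared, so the origin of these Ddx3y counts was not tested. No group of the study has 4 or more libraries, so single libraries were not screened for outlying values.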

How the results depend on the processing

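The number of members called in FF, 4 in all, was 1 at an adjusted p of 0.01, 2 with a replicate block on the compared groups alone, 7 without the libraries FF_EtOH C, WT_4OHT C and Het_4OHT A (adding Ddx19b, Ddx23 and Ddx60), and between 1 (without FF_4OHT C) and 8 (without Het_4OHT A) when single libraries were left out. It was 2 without FF_4OHT B or FF_EtOH C. With DESeq2 it was 6 (2 higher, 4 lower), and with the filter of 5 CPM 6 (3 higher, 3 lower). On the compared groups alone it was 5 (3 higher, 2 lower). Scaling by DESeq2 size factors or by library size alone each gave 5 (2 higher, 3 lower). The 8 without Het_4OHT A were 4 higher and 4 lower, and the 7 without the 3 libraries were 4 higher and 3 lower. Leaving out Het_4OHT A, which is in neither FF group, added Ddx10, Ddx19b, Ddx23 and Ddx24; the cause was not tested. For the FF against the WT response the count of 0 became 1 (Ddx55) with DESeq2 and without the 3 libraries. It also became 1 on the compared groups alone and with the replicate block on those groups. It stayed 0 without the 2 libraries and ran from 0 to 1 over single libraries left out. For the FF against the Het response it became 1 (Ddx59) with DESeq2 and without the 2 libraries, 2 (Ddx55 and Ddx59) without the 3, and ran from 0 to 1 (Ddx55, without Het_4OHT A). For Het against WT in ethanol the count of 3 became 0 at an adjusted p of 0.01, 1 on the compared groups alone and with the replicate block on those groups (Ddx11), 1 without the 2 libraries and WT_EtOH C (Ddx18), 1 with scaling by library size alone (Ddx28, higher, with the 3 lower calls lost), and ran from 0 to 4 over single libraries. The causes were not tested. The shares of all genes called under these settings are not given, apart from those stated above. Over all 18 libraries the replicate block kept the 4 FF calls and the 3 Het calls and added 0. On the 2 FF groups alone Ddx59 did not pass with the block (adjusted p = 0.0807) or without it (0.0795), while Ddx11 passed without the block and not with it (0.0625). For Het and WT responses the block changed no call. Ddx50 passed in 28 of 31 settings, Ddx59 in 25 and Ddx11 in 23. The median of the members in FF was 0.0 with DESeq2 size factors or library size alone, as was the median of all tested genes within 0.01. Counts limit Ddx4, Ddx60, Ddx25 and Ddx43.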
